A study of Mus musculus with 10 samples.

Results

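Collagen genes were followed by every probe set whose only gene symbol on the platform had the form Col, number, a, number, which gave 58 probe sets of 36 genes among 22626 probe sets without controls. Each gene encodes 1 chain of a collagen. Messenger RNA was measured on 10 Affymetrix arrays of fibroblasts from mouse embryos, cells of connective tissue kept in culture. G9a, encoded by Ehmt2, adds methyl groups to lysine 9 of histone H3 and to other proteins, and it is known for silencing genes. As background, the lysine replaced in K165A lies in a stretch of G9a that resembles the histone tail and that the enzyme can methylate. All cells of 4 groups, controls included, had lost their own G9a and then received 1 of 4 vectors. It was empty in the group called delta, and it carried FLAG-G9a in the wild-type form (WT), with the substitution K165A, or with H1093K, a catalytic mutant per the labels. A further group has only the word deleted in its title, and the sources used here do not give what vector its cells received. Each group had 2 arrays. The labels call the analyses independent without saying whether each array had a culture of its own, so p-values cover the spread between arrays, and that spread may be a technical one.

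Collagens are proteins of the extracellular matrix in which chains wind around each other in a triple helix. Fibrillar collagens such as collagen I, III, V and XI assemble into the banded fibres of skin, bone, tendon and cartilage, and fibroblasts are a main source of them. Network collagens form sheets, with collagen IV in basement membranes and collagen VIII under endothelium and in vessel walls. Collagen VI makes beaded microfibrils close to the cell surface from different chains, encoded by Col6a1, Col6a2 and Col6a3. Fibril-associated collagens such as collagen XII sit on the surface of fibrils and do not form fibrils of their own.

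The promoters of the collagen VI genes and of Col3a1, which rose with wild-type G9a, are shown first, together with that of Col4a1, which passed no test among the 4 reconstituted groups. Of the 36 genes, 27 had a promoter in the RefSeq table, with 30 windows in all, each running from 250 bases before the annotated start to 50 bases after it. The build is GRCm38.p6. Capitals mark matches on either strand to 4 motifs. The TATA box was searched as TATAAA. For the box named after its letters, the motif was CCAAT. The letters of the GC box, which Sp1-type factors can bind, were GGGCGG. For the AP-1 site, which reads the same on both strands, they were TGANTCA. Positions are counted from 0 at the annotated start.
Col6a3, chr1:90843922-90844221, minus strand: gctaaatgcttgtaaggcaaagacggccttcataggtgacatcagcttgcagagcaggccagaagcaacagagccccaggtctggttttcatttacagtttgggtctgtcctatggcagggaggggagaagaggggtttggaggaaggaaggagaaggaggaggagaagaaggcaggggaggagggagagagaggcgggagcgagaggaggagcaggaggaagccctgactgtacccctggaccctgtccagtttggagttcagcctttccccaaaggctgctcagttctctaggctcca
Col6a1, chr10:76725995-76726294, minus strand: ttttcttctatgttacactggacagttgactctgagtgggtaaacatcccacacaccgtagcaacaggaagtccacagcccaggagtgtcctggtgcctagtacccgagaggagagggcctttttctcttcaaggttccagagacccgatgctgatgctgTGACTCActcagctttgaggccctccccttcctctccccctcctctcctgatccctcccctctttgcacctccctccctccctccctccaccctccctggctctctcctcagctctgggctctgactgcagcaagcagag
Col6a2, chr10:76623355-76623654, minus strand: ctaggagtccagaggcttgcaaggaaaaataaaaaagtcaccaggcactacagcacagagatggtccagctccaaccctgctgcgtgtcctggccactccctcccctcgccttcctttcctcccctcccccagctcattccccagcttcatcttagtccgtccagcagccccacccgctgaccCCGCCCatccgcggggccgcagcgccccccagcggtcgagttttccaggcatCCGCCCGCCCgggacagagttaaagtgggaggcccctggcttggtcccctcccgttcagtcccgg
Col3a1, chr1:45311288-45311587, plus strand: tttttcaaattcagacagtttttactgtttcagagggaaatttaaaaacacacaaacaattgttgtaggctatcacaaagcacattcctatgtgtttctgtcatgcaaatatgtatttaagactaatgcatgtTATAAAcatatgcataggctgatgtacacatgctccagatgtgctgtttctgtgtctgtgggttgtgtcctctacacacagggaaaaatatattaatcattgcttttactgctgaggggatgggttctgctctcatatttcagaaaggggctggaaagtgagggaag
Col4a1, chr8:11312777-11313076, minus strand: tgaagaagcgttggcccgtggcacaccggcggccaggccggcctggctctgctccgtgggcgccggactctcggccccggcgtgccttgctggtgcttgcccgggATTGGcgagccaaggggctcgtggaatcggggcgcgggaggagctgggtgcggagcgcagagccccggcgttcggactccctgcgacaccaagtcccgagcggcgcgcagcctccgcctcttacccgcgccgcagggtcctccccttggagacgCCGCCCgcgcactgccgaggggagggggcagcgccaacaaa

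The Col6a3 window held none of the 4 motifs, and the Col6a1 window held the only AP-1 match among the 30 collagen windows, at position -90. The Col6a2 window held 3 GC box matches, at -67, -15 and -11, of which the last pair overlap. A further RefSeq start of Col6a2, with a window that begins at base 76623581, had 1 GC box match at -175. The Col3a1 window had a TATA box match at -117, and the Col4a1 window had a CCAAT match at -145 and a GC box match at 9. Among the 30 collagen windows, 5 held a TATA box, 12 a CCAAT box and 17 a GC box. Over all 32851 windows of the table, the shares with a match were 13.6% for the TATA box, 37.4% for the CCAAT box, 35.7% for the GC box and 7.81% for the AP-1 site. The windows also differed in CpG dinucleotides, the bases that carry DNA methylation in mammals. There were 3 CpG in the Col6a3 and Col6a1 windows, 16 in the Col6a2 window shown, 0 in that of Col3a1 and 37 in that of Col4a1, against a median of 7 over all windows. The window of Col4a2, the next gene along, overlaps that of Col4a1 by 78 bases. A match is a description of the letters only.

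The signal scale was alike on all arrays, with medians between 181 and 199, and between the arrays of 1 group r was 0.983 to 0.987 (Pearson, log2 scale, over probe sets that are not independent of each other). Ehmt2 itself (its brighter probe set) had a mean signal of 444 ± 41.0 with the empty vector, 648 ± 39.4 with wild-type G9a, 714 ± 14.5 with K165A, 478 ± 23.8 with H1093K and 1714 ± 50.9 in the arrays titled deleted (SD, n = 2). The H1093K arrays, at 461 and 494, overlapped the empty-vector arrays, at 473 and 415, and lay below every WT and K165A array. A dimmer probe set gave another order, with 21.8 ± 20.7, 73.3 ± 45.9, 134 ± 61.8, 86.1 ± 43.0 and 204 ± 59.9 in the same groups (SD, n = 2), and there the H1093K arrays overlapped the WT arrays. In both, the highest mean stood in the arrays whose title names the loss. The sources used here do not give whether that probe set lies in the removed part of the gene. The arrays titled deleted also stood apart in fibroblast and epithelial genes. Of 9 tested fibroblast markers, 3 were higher than with the empty vector (Pdgfra, Pdgfrb and Dcn), 3 were lower (Thy1, S100a4 and Fbln2) and 3 did not pass. Of all tested probe sets, 16.2% were higher and 17.6% lower in that comparison. Pdgfra and Dcn reached the mean signal of 103.5 set for testing only through the arrays titled deleted, so their direction was set by that choice. Dcn read 1357 and 1519 there and 5.28 to 54.0 elsewhere. Pdgfra read 1628 and 1743 there and 5.48 to 81.7 elsewhere. S100a4 went the other way, at 1151 and 1255 against 6148 and 7178 with the empty vector. The keratin Krt8 read 1577 and 1630.4 against 57.2 to 145. Of 5 tested epithelial genes, 3 were higher than with the empty vector. Cdh1, which would average under 103.5 without the WT arrays, was lower, at 31.9 and 16.1 against 135 and 77.4. The remaining 1 did not pass. For these reasons the 4 reconstituted groups are described first, and the arrays titled deleted separately. As background for the cell type, vimentin (Vim), an intermediate filament of mesenchymal cells, was between 7952 and 15818 on all 10 arrays.

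Of the 58 collagen probe sets, 32 of 19 genes were bright enough to test, with a mean signal at or above 103.5, the 40th percentile of all probe sets. The 26 others lay between 3.64 and 98.5. None of the 32 owed its place to a single group, since 0 fell under the threshold when any 1 group was left out of the mean. The dimmest tested member averaged 107. By class, the tested probe sets were 14 of 17 fibrillar, 9 of 12 network, 4 of 4 beaded filament, 3 of 17 fibril-associated and 2 of 8 of other types. Genes of cartilage collagens (Col2a1, Col9a2, Col9a3, Col11a2) and of hypertrophic cartilage (Col10a1) were among the untested. Other chains of these collagens were tested, namely Col9a1, at a mean of 107, and Col11a1, at 336 in its brighter probe set. The 17 genes with no tested probe set were Col10a1, Col11a2, Col13a1, Col14a1, Col15a1, Col17a1, Col19a1, Col20a1, Col22a1, Col25a1, Col26a1, Col2a1, Col4a3, Col4a4, Col7a1, Col9a2 and Col9a3. None of 6 chondrocyte markers and none of the 3 osteoblast markers on the platform was bright enough to test either.

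With wild-type G9a the beaded filament collagens rose. The fibrillar and network classes held calls in either direction and many probe sets that did not pass. The fibril-associated class held only a fall, and the remaining types held no call. Against the empty vector, 8 collagen probe sets of 6 genes rose and 4 of 4 genes fell of 32 tested (limma, adjusted p under 0.05), where 5.58% of all 13576 tested probe sets rose and 6.68% fell, 12.3% in all. All 4 beaded filament probe sets rose, with a median log2 difference of 0.66 against a median of -0.00 over all tested probe sets. Fibrillar probe sets were split, with 3 up, 2 down and 9 that did not pass. Among network collagens 1 rose, 1 fell and 7 did not pass, and among fibril-associated collagens 1 of 3 fell. Over all 32 the median log2 difference was 0.01. In cultures measured as a whole, fewer cells that express a gene and less RNA per cell cannot be told apart. Marker genes of cell types moved as well. Of 9 tested fibroblast markers, 2 rose with WT (Pdgfra and Pdgfrb) and 3 fell (Thy1, S100a4 and Fbln2), and their summed signal was 43201 to 53405 with WT and 47107 to 53638 with the empty vector. Pdgfra, Dcn and the epithelial Dsp were tested only through the arrays titled deleted. Their signals in the 4 reconstituted groups, 5.28 to 81.7, lay under the threshold of 103.5. A call on Pdgfra among these groups therefore compares signals too dim to be tested on their own. Of smooth muscle markers 2 of 4 tested fell and of epithelial markers 2 of 5, with 1 of 3 leukocyte markers and the 1 tested adipocyte marker. That gene, Fabp4, a fatty acid carrier, read 368 and 359 with the empty vector, 155 and 108 with wild-type G9a, 139.9 and 126 with K165A and 587 and 508 with H1093K, a log2 difference of -1.38 for WT (limma adjusted p = 0.00491). The 7 endothelial markers summed to no more than 319 on any array. Their part in the collagen differences was not tested.

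K165A gave the same counts against the same empty-vector arrays, with 8 collagen probe sets up and 4 down, against 5.13% up and 6.47% down of all probe sets (11.6% in all). Marker lists gave 2 higher and 3 lower of 9 fibroblast genes, 2 of 4 smooth muscle and 2 of 5 epithelial genes lower, and Fabp4 lower (log2 difference -1.35, limma adjusted p = 0.00560). The 9 again included Pdgfra, whose signals in the 4 reconstituted groups lay under the threshold for testing. The beaded filament median was 0.60. With H1093K, 1 collagen probe set rose and 0 fell, where 0.471% of all probe sets rose and 0.398% fell (0.869% in all), and the beaded filament median was -0.17. All these comparisons share the empty-vector arrays. Tested directly against wild-type G9a, H1093K differed in 11 of 32 collagen probe sets, with 3 higher and 8 lower, against 4.25% and 4.13% of all probe sets (8.38% in all). The 8 lower ones were the 4 of collagen VI and the 2 each of Col3a1 and Col11a1, and the 3 higher ones were Col12a1 and both probe sets of Col4a6. Of the markers, 3 fibroblast genes were higher and 1 lower in that comparison, with 1 smooth muscle and 1 epithelial gene higher and Fabp4 higher by 1.95 on the log2 scale (limma adjusted p = 0.000682), and their part in the collagen differences was not tested. A test for any difference among the 4 groups (moderated F test of limma) passed for 13 of the 32, against 11.9% of all probe sets.

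**Figure D1:**
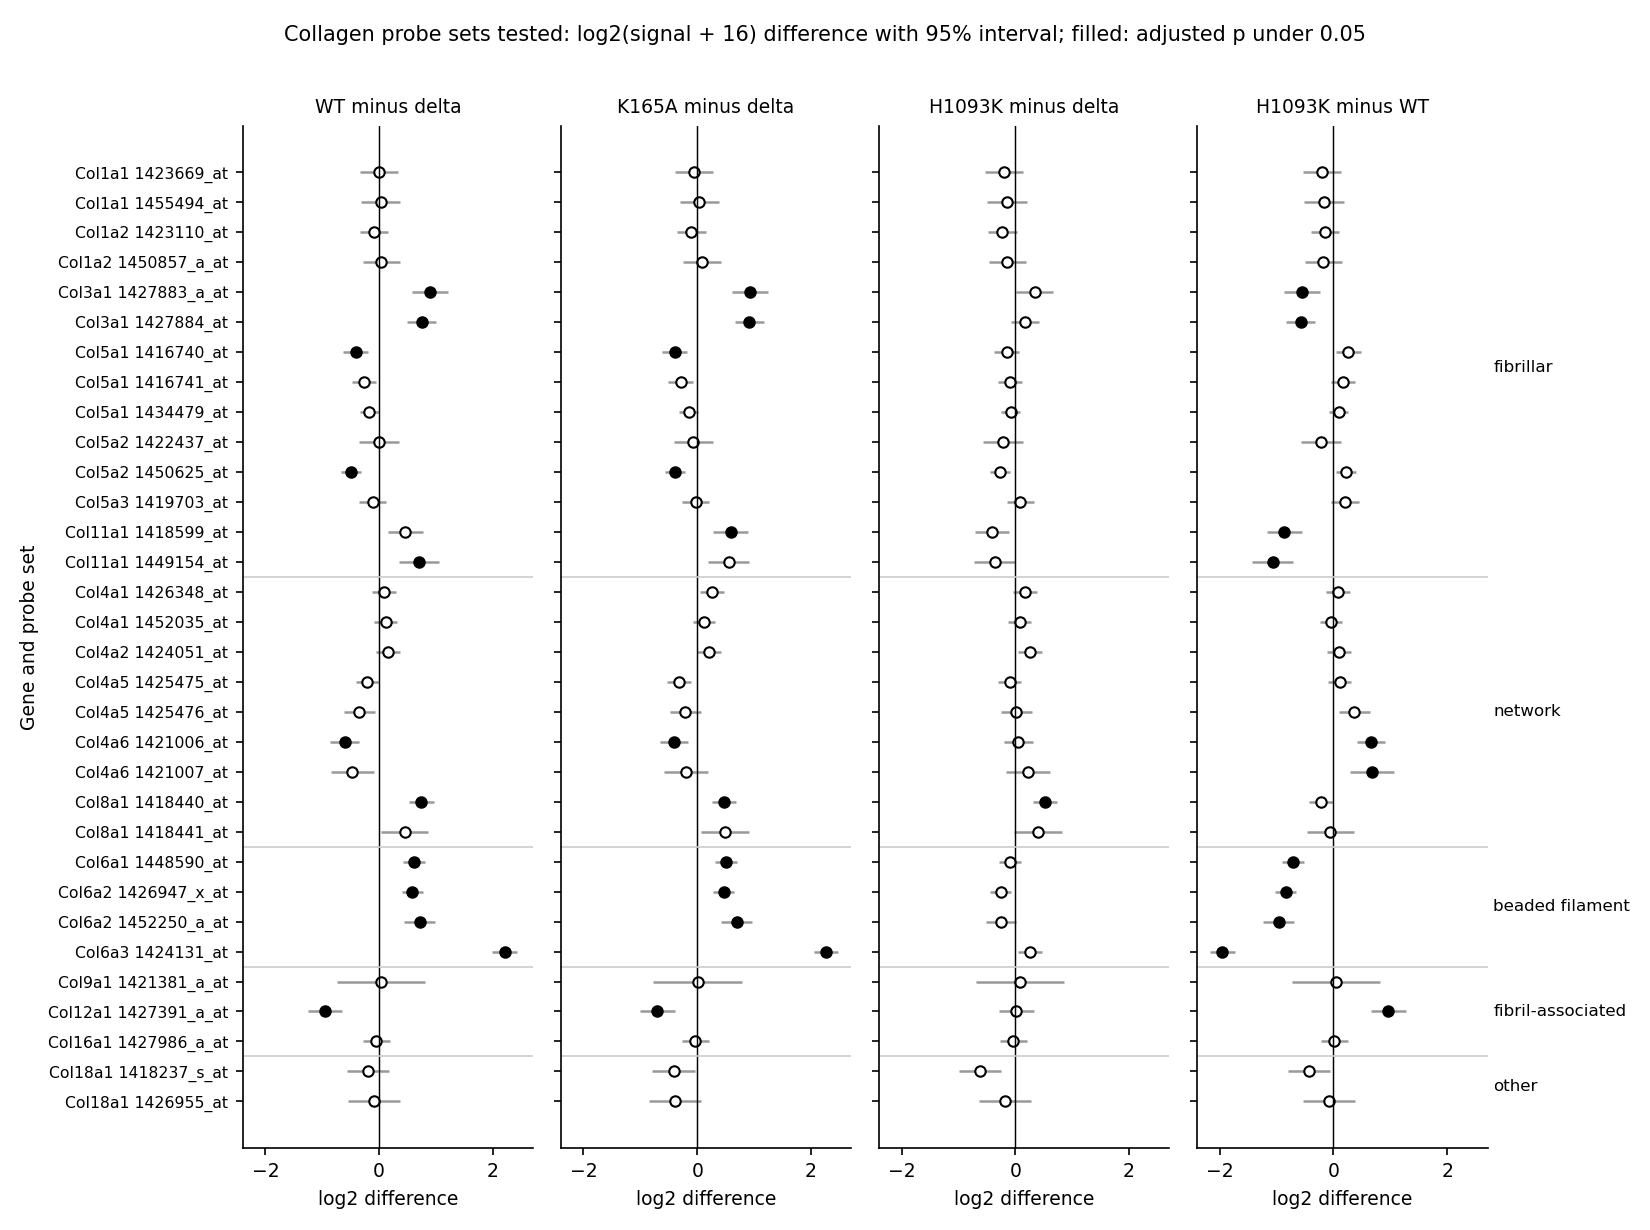
Differences in log2(signal + 16) of the 32 tested collagen probe sets, with 95% intervals, for WT, K165A and H1093K against delta and for H1093K against WT; probe sets are grouped by class and filled points passed an adjusted p of 0.05. Filled points of the beaded filament class lie to the right of 0 in the WT and K165A panels, at 0.47 to 2.26, and to the left in the H1093K minus WT panel, at -0.71 to -1.95.

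Col6a3 gave the largest differences of any tested collagen among the 4 reconstituted groups. Col6a3, which encodes the chain that carries most of the globular domains of collagen VI, had signals of 150.03 and 143 with the empty vector, 699.6 and 769 with wild-type G9a, 735 and 793 with K165A and 172 and 183 with H1093K. The 4 arrays with wild-type G9a or K165A lay far above the other 4, with no overlap. Wild-type G9a raised Col6a3 4.62-fold over the empty vector, a log2 difference of 2.21 ± 0.10 (SE; limma adjusted p = 1.65e-06), on a log2(signal + 16) scale that understates the change of dim probe sets. K165A raised it 4.80-fold (2.26 ± 0.10, limma adjusted p = 1.33e-06). With H1093K the log2 difference was 0.25 ± 0.10 and did not pass (limma adjusted p = 0.324). Between H1093K and wild-type G9a the level fell by 1.95 ± 0.10 on the log2 scale (limma adjusted p = 4.73e-06).

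Col6a1 and Col6a2, whose genes lie next to each other on chromosome 10, encode the shorter chains. Col6a1 read 3500.4 and 3599.6 with the empty vector, 5749 and 5161 with wild-type G9a, 5148 and 4939 with K165A and 3193 and 3449 with H1093K. Again the WT and K165A arrays were above the other 4 without overlap. The log2 differences from the empty vector were 0.62 ± 0.09 for WT (limma adjusted p = 0.00133) and 0.50 ± 0.09 for K165A (limma adjusted p = 0.00423). H1093K stood at -0.10 ± 0.09, which did not pass (limma adjusted p = 0.737), and was lower than WT by 0.71 (limma adjusted p = 0.000577).

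Col6a2 had 2 probe sets. The brighter read 1811 and 1636 with the empty vector, 3053 and 2627 with wild-type G9a, 3145 and 2476 with K165A and 1488 and 1406 with H1093K. The other, whose suffix says that some of its probes match other transcripts too, read 1397 and 1327 with the empty vector, 1959.9 and 2143 with wild-type G9a, 1857 and 1920.4 with K165A and 1177 and 1099 with H1093K. In both, every WT and K165A array lay above every empty-vector array, and every H1093K array lay below all others. WT raised the brighter probe set by 0.71 ± 0.12 and the other by 0.58 ± 0.08 on the log2 scale (limma adjusted p = 0.00405 and 0.00136). For K165A the rises were 0.69 and 0.47 (limma adjusted p = 0.00484 and 0.00501). H1093K differed from the empty vector by -0.25 and -0.26, neither of which passed (limma adjusted p = 0.459 and 0.232), and it was lower than WT in both, by 0.96 and 0.84 (limma adjusted p = 0.000727 and 0.000145). The calls on the 4 collagen VI probe sets in these comparisons kept their direction and passed under all 21 alternative settings.

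**Figure D2:**
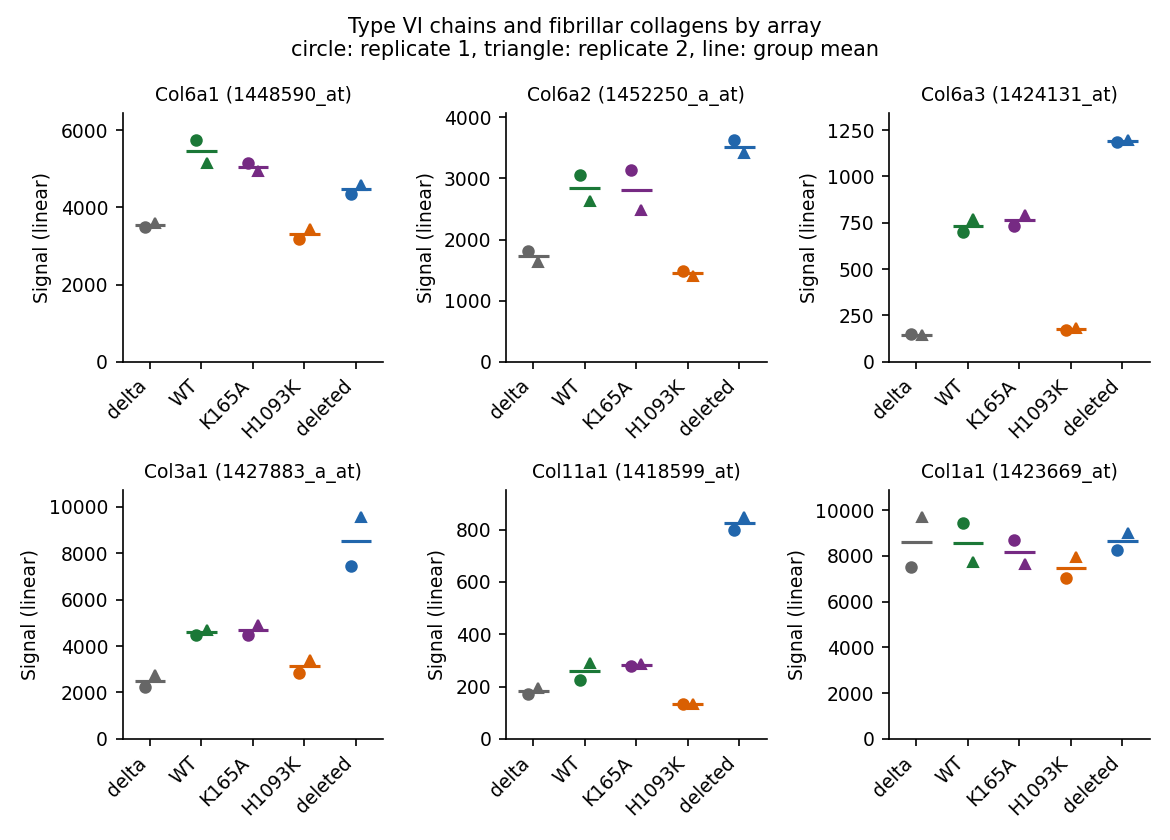
Signal on each array (linear scale, circle for replicate 1, triangle for replicate 2, line for the group mean) of Col6a1, Col6a2, Col6a3, Col3a1, Col11a1 and Col1a1 in the 5 groups. The WT and K165A points lie above those of delta and H1093K for the collagen VI and Col3a1 panels (for Col6a3, 699.6 and above against 183 and below). The arrays titled deleted are highest for Col6a2, Col6a3, Col3a1 and Col11a1. For Col1a1 the groups overlap, apart from H1093K and the arrays titled deleted.

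Among the fibrillar collagens, Col3a1 rose with wild-type G9a and K165A. It encodes collagen III, the fibrillar collagen of distensible tissues such as skin and vessel walls. Its brighter probe set read 2220.5 and 2739 with the empty vector, 4489.9 and 4703 with wild-type G9a, 4491 and 4899.7 with K165A and 2859 and 3412 with H1093K. The dimmer one read 292 and 300.2 with the empty vector, 494 and 523 with wild-type G9a, 536 and 615 with K165A and 357 and 316 with H1093K. The order was the same in both, with empty vector lowest, H1093K next, and WT and K165A highest without overlap with either. WT raised them by 0.89 ± 0.14 and 0.75 ± 0.11 (limma adjusted p = 0.00310 and 0.00207), and K165A by 0.92 and 0.92 (limma adjusted p = 0.00259 and 0.000607). H1093K did not pass against the empty vector, at 0.34 and 0.17 (limma adjusted p = 0.387 and 0.611), and was lower than WT by 0.55 and 0.57 (limma adjusted p = 0.0422 and 0.0112). The lower level of the brighter probe set with H1093K than with WT was lost (limma, adjusted p in brackets) when H1093K replicate 1 (0.264), WT replicate 2 (0.158), WT replicate 1 (0.144), H1093K replicate 2 (0.0609), K165A replicate 1 (0.0564) or K165A replicate 2 (0.0563) was left out, and under median scaling (0.0755), without the filter (0.0747) and without an intensity trend (0.0734). For the dimmer probe set it was lost (limma, adjusted p in brackets) when H1093K replicate 2 (0.0860), WT replicate 2 (0.0772) or WT replicate 1 (0.0533) was left out.

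Col11a1, which encodes a chain of the minor fibrillar collagen XI that nucleates thin fibrils, was dim, and its probe sets divided over the threshold. The brighter read 170.0 and 195 with the empty vector, 226 and 289 with wild-type G9a, 278 and 288 with K165A and 133 and 133 with H1093K, and the dimmer read 147 and 120.2 with the empty vector, 212 and 243 with wild-type G9a, 189 and 219 with K165A and 107 and 93.7 with H1093K. The H1093K arrays were the lowest and the WT and K165A arrays the highest in both. Against the empty vector, WT passed only in the dimmer (0.70 ± 0.16, limma adjusted p = 0.0193; 0.46 and 0.0585 in the other), and K165A passed only in the brighter (0.59 ± 0.14, limma adjusted p = 0.0216; 0.56 and 0.0523 in the other). The WT call was lost (limma, adjusted p in brackets) when WT replicate 2 (0.120), delta replicate 2 (0.119) or WT replicate 1 (0.0547) was left out, and with the compared arrays alone (0.0527). That for K165A was lost (limma, adjusted p in brackets) when delta replicate 1 (0.114), K165A replicate 2 (0.0966) or K165A replicate 1 (0.0750) was left out, and with the compared arrays alone (0.0811). The split between the probe sets depended on the fit, since without an intensity trend the brighter passed for WT (limma adjusted p = 0.0491) and the dimmer for K165A (limma adjusted p = 0.0425). The difference between H1093K and WT passed in both probe sets, at -0.87 ± 0.14 and -1.07 ± 0.16 (limma adjusted p = 0.00328 and 0.00236).

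Col5a1 and Col5a2 encode chains of collagen V, which is incorporated into collagen I fibrils and limits their width. The brightest of 3 Col5a1 probe sets read 3388 and 3403 with the empty vector, 2714 and 2385 with wild-type G9a, 2800.1 and 2381 with K165A and 3217 and 2902 with H1093K. It was lower than the empty vector by 0.41 ± 0.10 with WT and by 0.39 ± 0.10 with K165A (limma adjusted p = 0.0248 and 0.0316), while the other 2 gave -0.26 and -0.18 with WT and did not pass (limma adjusted p = 0.115 and 0.172). The WT call was lost (limma, adjusted p in brackets) when WT replicate 2 (0.142), delta replicate 2 (0.102) or delta replicate 1 (0.0898) was left out, and without an intensity trend (0.0504) and with the compared arrays alone (0.0502). The K165A call was lost (limma, adjusted p in brackets) when K165A replicate 2 (0.177), delta replicate 2 (0.125), delta replicate 1 (0.106), deleted replicate 2 (0.0520) or deleted replicate 1 (0.0519) was left out, and with the compared arrays alone (0.0844), without an intensity trend (0.0610), without the filter (0.0532) and without the arrays titled deleted (0.0519). Col5a2, the neighbour of Col3a1 on chromosome 1, had probe sets that disagreed. The brighter had a WT difference of 0.00 ± 0.16 (limma adjusted p = 0.999). The dimmer, singled out here after its values were seen, read 4160.5 and 4448 with the empty vector, 2979 and 3102 with wild-type G9a, 3337 and 3196 with K165A and 3390.4 and 3740.0 with H1093K, and it fell by 0.50 ± 0.08 with WT and by 0.40 ± 0.08 with K165A (limma adjusted p = 0.00304 and 0.0110). That for K165A was lost (limma, adjusted p in brackets) when delta replicate 2 (0.0854) or K165A replicate 2 (0.0667) was left out, and with the compared arrays alone (0.0578).

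Collagen I, the most abundant collagen of fibroblast matrix, gave no call. Col1a1 (brighter probe set) read 7499 and 9693 with the empty vector, 9418 and 7734 with wild-type G9a, 8688 and 7658 with K165A and 7011 and 7956 with H1093K. Col1a2 (brighter probe set) read 10409.6 and 12002 with the empty vector, 13065 and 10049 with wild-type G9a, 12637 and 11096 with K165A and 9659 and 10598 with H1093K. The groups overlapped for both genes, apart from K165A and H1093K for Col1a2. Between WT and the empty vector the log2 difference of Col1a1 was 0.00 (95% interval -0.33 to 0.34) and that of Col1a2 was 0.04 (-0.29 to 0.36). For H1093K against WT they were -0.19 (-0.53 to 0.14) and -0.18 (-0.51 to 0.15). The second probe set of each did not pass in any comparison either.

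The network class held different patterns. Col8a1, which encodes a chain of collagen VIII, read 691 and 761 with the empty vector, 1203 and 1250.1 with wild-type G9a, 965 and 1055 with K165A and 979 and 1127 with H1093K in its brighter probe set. Every array that received a G9a form lay above both empty-vector arrays. The log2 differences were 0.75 ± 0.10 for WT, 0.47 ± 0.10 for K165A and 0.53 ± 0.10 for H1093K (limma adjusted p = 0.000854, 0.0122 and 0.0429). This was the 1 collagen probe set called with H1093K, and that call was lost in 15 of the 21 alternative settings, each of the 10 that left out an array included, with adjusted p up to 0.219. The K165A call was lost (limma, adjusted p in brackets) when K165A replicate 2 (0.0810) or delta replicate 1 (0.0771) was left out. H1093K and WT did not differ past the threshold (-0.22, 95% interval -0.44 to -0.01), and the dimmer probe set passed in none of these comparisons, with WT at 0.45 (limma adjusted p = 0.160).

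Col4a6, a chain of the collagen IV of some epithelial and smooth muscle basement membranes, moved the other way. The brighter of its probe sets read 309 and 299 with the empty vector, 182 and 206 with wild-type G9a, 216 and 235 with K165A and 317 and 316 with H1093K. The WT and K165A arrays lay below the others without overlap. WT lowered it by 0.61 ± 0.11 and K165A by 0.40 ± 0.11 (limma adjusted p = 0.00665 and 0.0443), whereas H1093K was 0.06 from the empty vector (limma adjusted p = 0.909) and higher than WT by 0.66 ± 0.11 (limma adjusted p = 0.00471). The WT call was lost (limma, adjusted p in brackets) when WT replicate 1 (0.0543) was left out. That for K165A was lost (limma, adjusted p in brackets) when K165A replicate 1 (0.180), delta replicate 1 (0.155), delta replicate 2 (0.130), K165A replicate 2 (0.0834), deleted replicate 2 (0.0688), deleted replicate 1 (0.0675), H1093K replicate 2 (0.0662) or H1093K replicate 1 (0.0657) was left out, and with the compared arrays alone (0.172), without the arrays titled deleted (0.0838) and without the filter (0.0590). The dimmer probe set passed only for H1093K against WT, at 0.69 ± 0.17 (limma adjusted p = 0.0389). That call was lost (limma, adjusted p in brackets) when H1093K replicate 1 (0.194), WT replicate 2 (0.191), H1093K replicate 2 (0.112), deleted replicate 1 (0.0649), deleted replicate 2 (0.0643), K165A replicate 1 (0.0524) or K165A replicate 2 (0.0521) was left out, and with the compared arrays alone (0.0959), without the filter (0.0783) and without the arrays titled deleted (0.0747).

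Col4a1 and Col4a2, neighbours on chromosome 8 that encode the chains of the collagen IV present in nearly all basement membranes, gave no call among the 4 groups. Col4a1 (brighter probe set) read 4072 and 4561 with the empty vector, 4636 and 4691 with wild-type G9a, 4705 and 4639 with K165A and 4402 and 4686 with H1093K. Col4a2 read 2247 and 2531 with the empty vector, 2573 and 2771 with wild-type G9a, 2714 and 2783 with K165A and 2661 and 3088 with H1093K. The differences between WT and the empty vector were 0.11 (95% interval -0.08 to 0.31) and 0.16 (-0.05 to 0.37), and between H1093K and WT -0.04 (-0.24 to 0.16) and 0.10 (-0.11 to 0.31). Col4a5, next to Col4a6 on the X chromosome, did not pass either in its 2 probe sets, at -0.35 and -0.21 for WT (limma adjusted p = 0.0995 and 0.185). The brighter passed for WT when WT replicate 2 was left out (limma adjusted p = 0.0401), and the dimmer for K165A with a filter at the 60th percentile (0.0477), after quantile normalization (0.04998) or when WT replicate 1 (0.0443) or WT replicate 2 (0.0444) was left out.

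**Figure D3:**
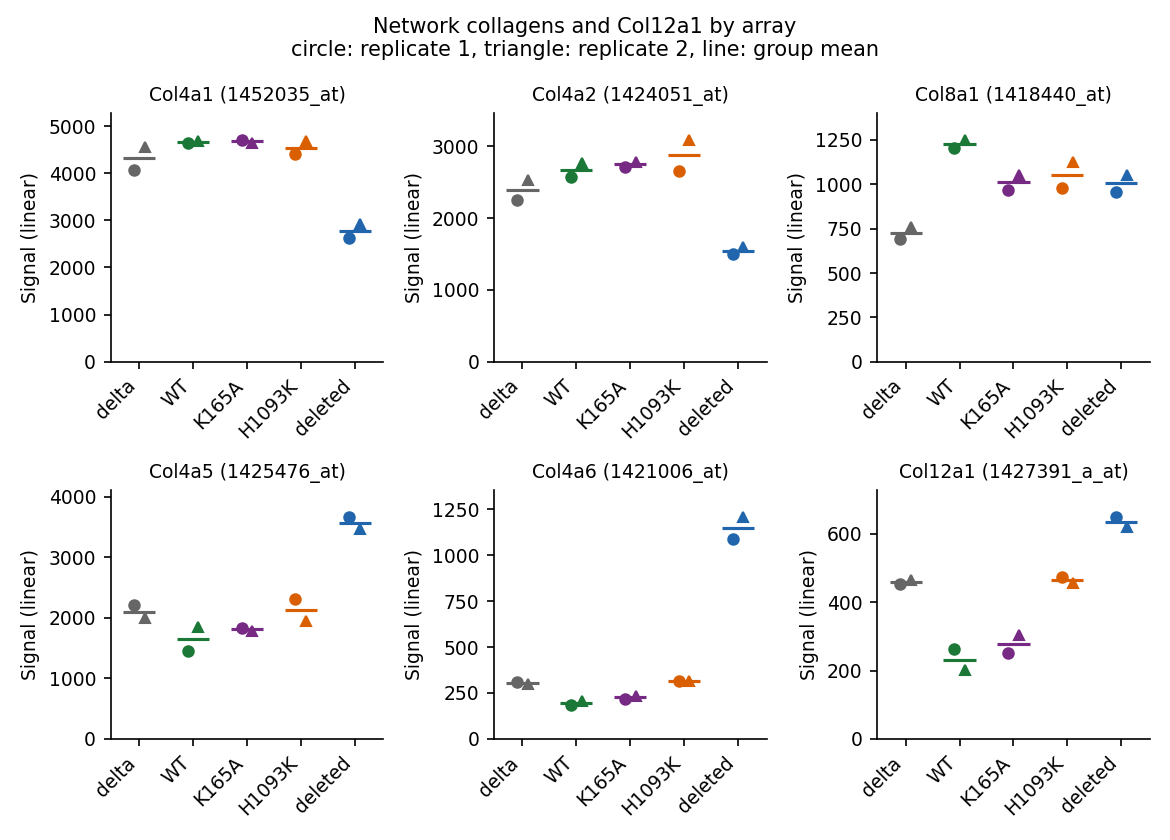
Signal on each array (linear scale, circle for replicate 1, triangle for replicate 2, line for the group mean) of Col4a1, Col4a2, Col8a1, Col4a5, Col4a6 and the fibril-associated Col12a1 in the 5 groups. The WT and K165A points are lowest for Col4a6 and Col12a1, the delta points are lowest for Col8a1, and the arrays titled deleted lie below all others for Col4a1 and Col4a2 and above all others for Col4a5, Col4a6 and Col12a1.

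Of the fibril-associated collagens, Col12a1 was the one that moved. It encodes collagen XII, found along collagen I fibrils in dense connective tissue. Its probe set read 454 and 464 with the empty vector, 262 and 202 with wild-type G9a, 252 and 304 with K165A and 474 and 456 with H1093K. WT and K165A arrays lay below the rest without overlap. The level fell by 0.95 ± 0.14 with WT and by 0.70 ± 0.14 with K165A (limma adjusted p = 0.00161 and 0.00934). H1093K was 0.02 from the empty vector (95% interval -0.29 to 0.32) and 0.97 ± 0.14 above WT (limma adjusted p = 0.00159). The K165A call was lost (limma, adjusted p in brackets) when K165A replicate 1 (0.0659) or delta replicate 2 (0.0549) was left out. Col9a1 and Col16a1, the other tested members, passed in none of the comparisons, and Col16a1 stayed between 940.0 and 1189.7 on all 10 arrays. Col18a1, the tested gene of the remaining types and the source of endostatin, gave -0.09 and -0.19 for WT in its 2 probe sets (limma adjusted p = 0.831 and 0.523).

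Between K165A and wild-type G9a no collagen probe set passed, with 0 of 32 under limma and 0 of all 13576 (0%). At an unadjusted p under 0.05 there was 1 collagen probe set, Col8a1 (brighter probe set), at -0.28 (95% interval -0.49 to -0.06), and 433 of all probe sets. The intervals of the differences were -0.16 to 0.27 for Col6a3, -0.30 to 0.08 for Col6a1, -0.29 to 0.25 for Col6a2, -0.29 to 0.35 for Col3a1 and -0.05 to 0.55 for Col12a1, on the log2 scale. Against H1093K, K165A was higher in 8 collagen probe sets and lower in 2, where 3.66% of all probe sets were higher and 4.04% lower (7.70% in all). The 8 were the 4 of collagen VI and the 2 each of Col3a1 and Col11a1. Col6a3 differed most, at 2.01 ± 0.10 (limma adjusted p = 4.11e-06). The 2 lower ones were Col12a1, at -0.72 ± 0.14, and Col4a6 (brighter probe set), at -0.46 ± 0.11 (limma adjusted p = 0.00995 and 0.0338). The Col12a1 call was lost (limma, adjusted p in brackets) when K165A replicate 1 (0.0795), H1093K replicate 1 (0.0720) or H1093K replicate 2 (0.0532) was left out. The Col4a6 call was lost (limma, adjusted p in brackets) when K165A replicate 1 (0.171), H1093K replicate 1 (0.147), H1093K replicate 2 (0.139), K165A replicate 2 (0.0683), deleted replicate 2 (0.0562) or deleted replicate 1 (0.0548) was left out, and with the compared arrays alone (0.136) and without the arrays titled deleted (0.0704). The call of Col3a1 in its brighter probe set was lost (limma, adjusted p in brackets) when H1093K replicate 1 (0.226), K165A replicate 2 (0.154), K165A replicate 1 (0.0959), WT replicate 1 (0.0555), WT replicate 2 (0.0554) or H1093K replicate 2 (0.0546) was left out, and under median scaling (0.0690), without an intensity trend (0.0659) and without the filter (0.0644). The Col11a1 call in the dimmer probe set was lost (limma, adjusted p in brackets) when H1093K replicate 2 (0.0529) was left out.

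The arrays titled deleted were compared with the empty vector and with WT, and differed from them in 22 and 17 of the 32 tested collagen probe sets. Against the empty vector, 14 collagen probe sets were higher and 8 lower of 32, where 16.2% of all probe sets were higher and 17.6% lower (33.9% in all). By class, 4 fibrillar probe sets were higher and 4 lower, 5 network probe sets were higher and 3 lower, all 4 of collagen VI and 1 fibril-associated were higher, and 1 of other types was lower. Some calls were lost (limma, adjusted p in brackets): brightest Col5a1 without the filter (0.0502) and without an intensity trend (0.0575), and dimmest Col5a1 with the compared arrays alone (0.0559). The fibril-associated call, Col12a1, was lost under median scaling (0.0557). These calls, and the lower call of dimmer Col5a2, were also lost when some single arrays were left out. After scaling each array to a common median, the split was 12 higher and 10 lower for the collagens, and over all probe sets it moved from 2206 higher and 2390 lower to 1685 and 2986. Against WT, 10 were higher and 7 lower (16.2% and 17.1% of all, 33.3% in all), and over all probe sets median scaling moved that split from 2197 higher and 2326 lower to 1623 and 2819.

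The fibrillar genes Col3a1 and Col11a1 had their highest signals there. Col3a1 read 7468 and 9561 in the brighter probe set and 2239 and 1897 in the dimmer one, above every array of the other groups, with log2 differences from the empty vector of 1.77 ± 0.14 and 2.73 ± 0.11 (limma adjusted p = 9.83e-06 and 1.23e-07). Col11a1 read 800.4 and 848 in the brighter probe set, 4.24-fold above the empty vector (limma adjusted p = 2.53e-06). Col5a3, a further chain of collagen V, was the opposite, at 443 and 461 against 1359 and 1399.5 with the empty vector, and it fell by 1.58 ± 0.11 (limma adjusted p = 3.06e-06). Col1a1 and Col1a2 did not pass here either, at 0.02 (-0.32 to 0.35) and -0.12 (-0.45 to 0.21).

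The collagen IV genes moved in both directions. Col4a1 read 2632 and 2929 and Col4a2 1498 and 1594, below every array of the other groups, with falls of 0.63 ± 0.09 and 0.62 ± 0.09 against the empty vector (limma adjusted p = 0.000425 and 0.000725). On the X chromosome, Col4a6 (brighter probe set) read 1087 and 1209, 3.64-fold above the empty vector (limma adjusted p = 1.32e-06), and Col4a5 (brighter probe set) read 3668 and 3464, 1.70-fold above it (limma adjusted p = 0.000976). Epithelial marker genes moved with these: the summed signal of 7 epithelial genes was 4487 to 4561 in the arrays titled deleted, 1267 to 1474 with the empty vector, 832 to 870.3 with WT, 661 to 775 with K165A and 946 to 1098 with H1093K. Of the 5 epithelial genes tested, 3 were higher (Krt8, Krt18 and Dsp) and 1 was lower (Cdh1) against the empty vector. Of all tested probe sets, 16.2% were higher and 17.6% lower in that comparison. Dsp, at 29.2 to 52.4 elsewhere, reached the threshold for testing only through the arrays titled deleted. Cdh1 reached it only with the WT arrays in the mean. The adhesion molecule Cdh1, a defining epithelial gene, read 31.9 and 16.1 there against 135 and 77.4 with the empty vector, and Epcam, another, was between 4.03 and 35.9 on all arrays. Smooth muscle genes were lower, with 4 of 4 tested below the empty vector and a summed signal of 9496 to 9929.9 against 16099.6 to 19494. The part of either in these collagen differences was not tested.

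Collagen VI was raised in the arrays titled deleted as well. Col6a3 read 1188 and 1197, 7.45-fold above the empty vector and 1.61-fold above WT (limma adjusted p = 3.66e-08 and 0.000431). Col6a2 in its brighter probe set read 3629.8 and 3412, which was 2.03-fold above the empty vector (limma adjusted p = 0.000126) and did not pass against WT (0.31, limma adjusted p = 0.0721), though it did after quantile normalization (0.0192) and when K165A replicate 1 (0.0341) or K165A replicate 2 (0.0341) was left out. Col6a1 read 4355 and 4577, between the empty vector and WT, at 0.33 from the former and -0.29 from the latter (limma adjusted p = 0.0139 and 0.0279). The Col6a1 call against the empty vector was lost (limma, adjusted p in brackets) when deleted replicate 2 (0.0964), delta replicate 1 (0.0758) or delta replicate 2 (0.0523) was left out, and under median scaling (0.0886). That against WT was lost (limma, adjusted p in brackets) when deleted replicate 1 (0.152), WT replicate 1 (0.143) or deleted replicate 2 (0.0748) was left out, and with the compared arrays alone (0.0882). Col12a1 read 649 and 621, 2.64-fold above WT (limma adjusted p = 4.02e-05). Col18a1 in its dimmer probe set read 125 and 159 and was lower than the empty vector by 0.80 ± 0.17 (limma adjusted p = 0.00456). The suffix of that probe set says that its probes can match several transcripts. The other probe set of Col18a1, at -0.55, did not pass (limma adjusted p = 0.0625). It did pass under median scaling (limma adjusted p = 0.0306), after quantile normalization (0.0316) and when delta replicate 2 was left out.

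**Figure D4:**
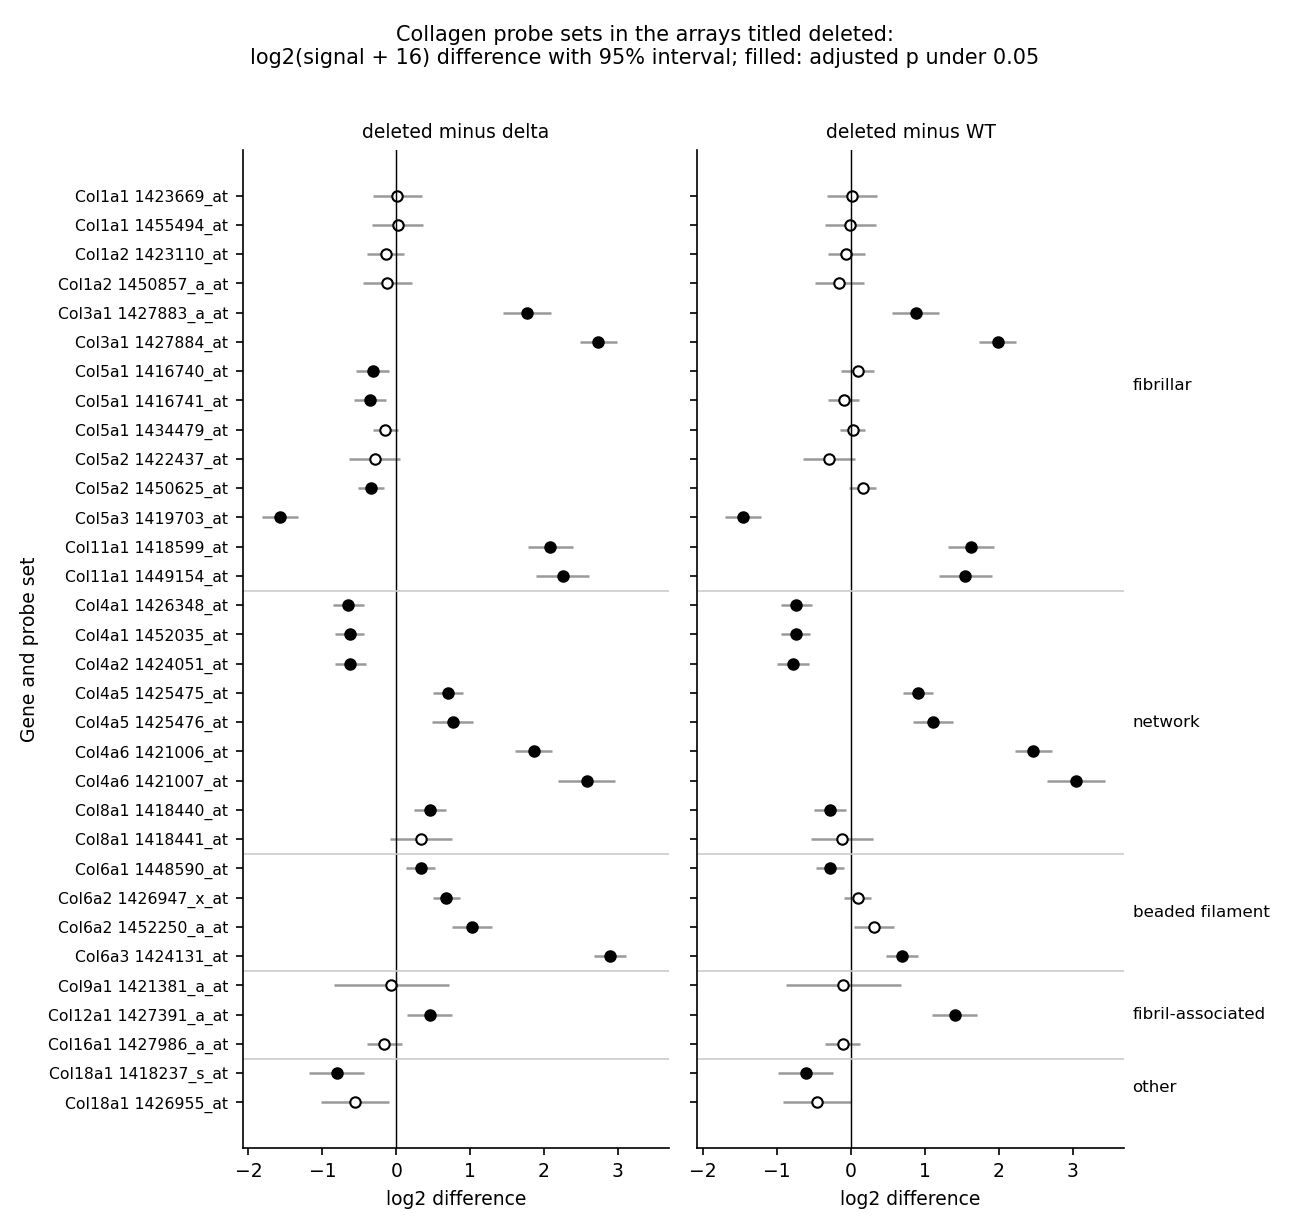
Differences in log2(signal + 16) of the 32 tested collagen probe sets between the arrays titled deleted and delta (left) or WT (right), with 95% intervals, grouped by class; filled points passed an adjusted p of 0.05. Col3a1, Col11a1, Col4a5 and Col4a6 lie to the right of 0 in both panels, Col5a3, Col4a1 and Col4a2 to the left, and no point of Col1a1 or Col1a2 is filled.

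Genes that act on collagen chains were taken from lists of general knowledge. Enzymes and chaperones fold the chains and hydroxylate their prolines and lysines before secretion. Of 20 such genes, 15 were on the platform and 14 were tested, and against the empty vector 0 rose, 1 fell and 13 did not pass with WT or with K165A, while 14 of 14 did not pass with H1093K. The 1 of 14 is near the share of all tested probe sets that fell, 6.68% with WT and 6.47% with K165A. The one was Plod2, the lysyl hydroxylase of collagen telopeptides that prepares them for cross-linking. It read 784 and 941 with the empty vector, 513 and 585 with wild-type G9a, 489.7 and 568 with K165A and 771 and 878 with H1093K, lowest in the WT and K165A arrays, without overlap. It was lower by 0.63 ± 0.12 with WT and by 0.69 ± 0.12 with K165A (limma adjusted p = 0.00911 and 0.00599), and the WT call was lost (limma, adjusted p in brackets) when WT replicate 1 (0.0785) or delta replicate 2 (0.0678) was left out. The next genes of the list by the same rule were P3h3 (a prolyl 3-hydroxylase, 0.43, limma adjusted p = 0.0730), Colgalt1 (a galactosyltransferase of collagen hydroxylysine, -0.35, limma adjusted p = 0.0559) and Plod3 (a lysyl hydroxylase and glycosyltransferase, -0.21, limma adjusted p = 0.114), none of which passed with WT.

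After secretion, proteases remove the propeptides and lysyl oxidases cross-link the fibrils. Of 13 such genes, 9 were on the platform and 7 were tested, and 3 of these fell and 0 rose with WT and with K165A, with 0 calls for H1093K. Of all tested probe sets, 6.68% fell with WT and 6.47% with K165A, and 0.869% were called with H1093K. Tll1, a protease of the BMP1 family that cleaves procollagen, read 498 and 483 with the empty vector, 127 and 149.6 with wild-type G9a, 124 and 122 with K165A and 722 and 661 with H1093K. The WT and K165A arrays were lowest and the H1093K arrays highest, without overlap. It fell by 1.72 ± 0.13 with WT and 1.86 ± 0.13 with K165A (limma adjusted p = 2.39e-05 and 1.34e-05), and H1093K was 2.20 ± 0.13 above WT (limma adjusted p = 1.2e-05). The lysyl oxidase family members Loxl1 and Loxl4 were lower with WT by 0.57 ± 0.10 and 0.94 ± 0.15 (limma adjusted p = 0.00468 and 0.00273), and with K165A by 0.63 and 0.76 (limma adjusted p = 0.00266 and 0.00928), the last of which was lost (limma, adjusted p in brackets) when delta replicate 2 (0.0719) or K165A replicate 2 (0.0683) was left out. Loxl3, a further member, did not pass, at -0.23 ± 0.09 with WT (limma adjusted p = 0.139). In the arrays titled deleted, 4 of the 7 were lower than the empty vector and 0 higher, where 17.6% of all probe sets were lower and 16.2% higher. The weakest of these 4 calls (limma adjusted p = 0.0498) was lost without the filter (0.0781), without an intensity trend (0.0809) and in further settings. The folding and modification list gave 4 higher and 2 lower of 14 there, with Plod2 among the higher at 1523 and 1704, above all other arrays.

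Of 8 collagen receptors, 5 were on the platform and 4 were tested, of which 1 fell with WT and with K165A, beside the same shares of all probe sets. Among them was Ddr1, a receptor tyrosine kinase that binds collagen. The suffix of the probe set used says that some of its probes match other transcripts too. Ddr1 read 1493 and 1192 with the empty vector, 908 and 1014 with wild-type G9a, 880.1 and 933 with K165A and 1280.0 and 1160.2 with H1093K. The WT and K165A arrays lay below the others without overlap. It was lower by 0.47 ± 0.11 with WT and by 0.55 ± 0.11 with K165A (limma adjusted p = 0.0257 and 0.0126). The WT call was lost (limma, adjusted p in brackets) when WT replicate 1 (0.163), delta replicate 1 (0.143) or WT replicate 2 (0.0590) was left out, and with the compared arrays alone (0.0591) and without an intensity trend (0.0522). That for K165A was lost (limma, adjusted p in brackets) when K165A replicate 1 (0.0750) or delta replicate 1 (0.0742) was left out. Itgb1, the beta chain of the collagen-binding integrins, Ddr2 and Mrc2, the receptor for collagen uptake, passed in none of the comparisons among the 4 groups, with WT differences between -0.08 and 0.12.

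**Figure D5:**
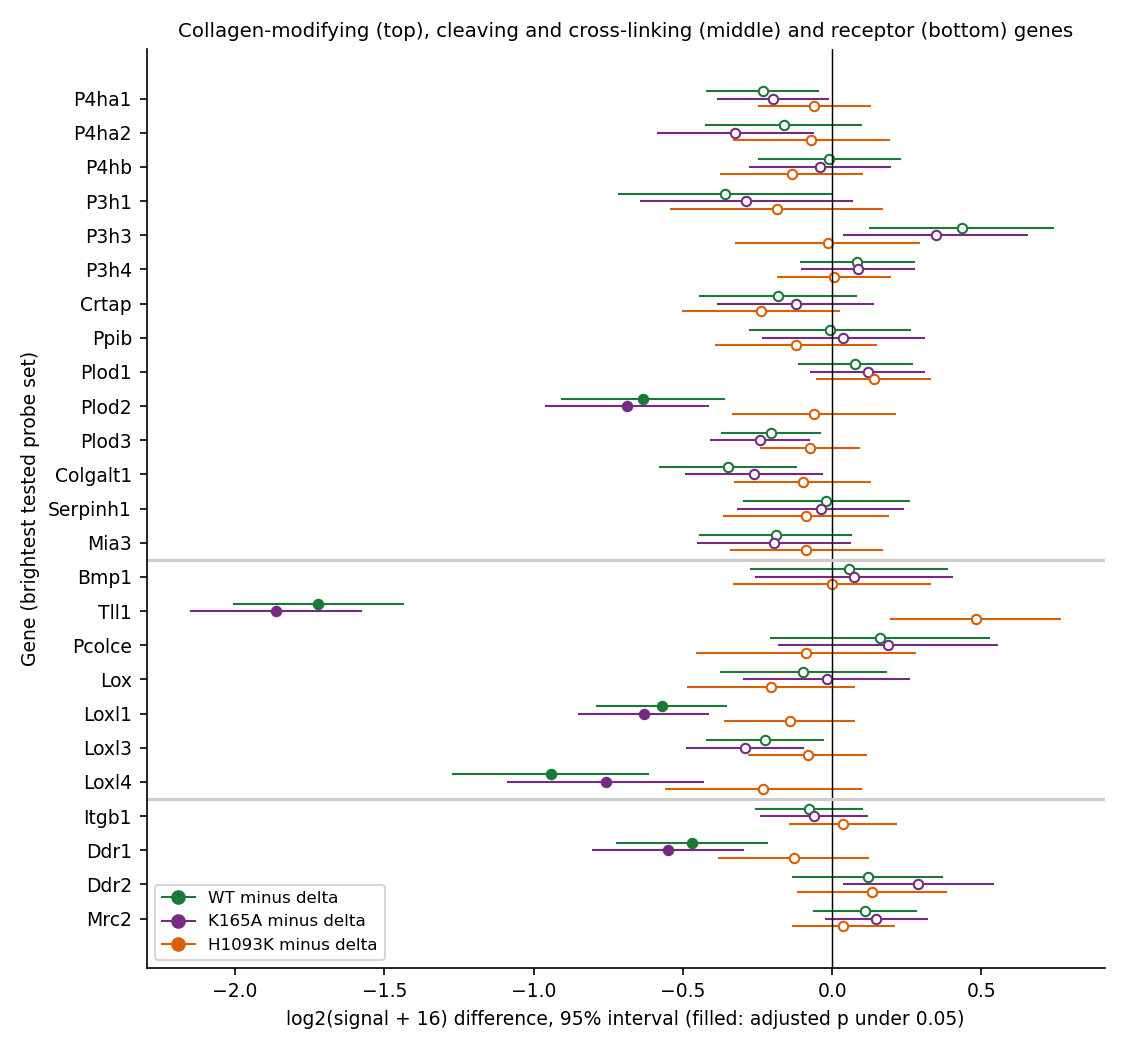
Differences in log2(signal + 16) from delta for genes of collagen modification (top), cleavage and cross-linking (middle) and reception (bottom), 1 probe set a gene, with 95% intervals; filled points passed an adjusted p of 0.05. Filled points lie to the left of 0 for WT and K165A in Plod2, Tll1, Loxl1, Loxl4 and Ddr1, and no H1093K point is filled.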

How the data were processed

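Total RNA of 10 mouse embryonic fibroblast samples was measured on 10 Affymetrix arrays, in 5 groups of 2 taken from the titles. The values are linear signal intensities per probe set that the authors deposited, made with GCOS 1.4 per the submitters' processing notes. The options used in GCOS are not given in the sources used here, and the mean trimmed by 2% at each end, near 500.1 on every array, shows that the deposited intensities were brought to 1 level. No further normalization was applied. The 64 control probe sets were left out, which left 22626. Of these, 20380 had 1 gene symbol in the platform annotation, 691 had several and 1555 had none. Values were used as log2(signal + 16), so a fold change of a dim probe set is understated, and these log2 values were computed here from the deposited intensities. Probe sets with a mean signal of at least 103.5, the 40th percentile, were tested, which were 13576. One linear model over the 5 groups was fitted with limma 3.58.1 in R 4.3.3 (empirical Bayes with an intensity trend, 5 residual degrees of freedom), and p-values were adjusted over all tested probe sets by the Benjamini-Hochberg method for each of 8 comparisons and for the F test. Calls have an adjusted p under 0.05. The number of arrays limits the precision, and an exact permutation test of 2 against 2 arrays cannot give a p below 0.333. On simulated data for WT against delta, over 13576 probe sets, 84% of 100 log2 changes of 1 and 98% of 100 changes of 2 were recovered, with 15 false calls. The simulated noise was normal and independent between arrays, whereas real arrays with the same number deviated together. No change under 1 was simulated, and far fewer probe sets changed than were called here. These shares therefore need not hold for these data. Promoters were read with Python 3.11.15.

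The members and gene lists were chosen with earlier results of these data known. Values in every array are given for the brightest probe set of each collagen gene that passed among the 4 reconstituted groups, and for Col1a1, Col1a2, Col3a1, Col4a1, Col4a2, Col6a1, Col6a2, Col6a3 and Col12a1 whatever their result. Other probe sets of these genes stand beside them, collagens called against the arrays titled deleted could be named too, and each pathway list gives up to 4 genes of smallest F test p. Signals of different probe sets were not compared. The alternatives were other pseudocounts, filters and scalings, fits with fewer arrays and a replicate block. A filter on the mean log2 value, and the alternatives for pathway genes, were added after seeing the data.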

Additional observations from a re-analysis of the deposited data

Results flagged for a closer look

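Both results here come from collagens too dim to be tested, fitted again without the filter on low signals. Only higher ones are listed, and dim collagens that were lower are not. Without the filter, 16 collagen probe sets were higher and 8 lower in the arrays titled deleted than with the empty vector. With it, 14 were higher and 8 lower. The lower call of brightest Col5a1 was lost without the filter (limma adjusted p = 0.0502), so the 8 lower ones are not the same in both fits. Signals of the listed collagens with the empty vector are at the dim end of the arrays. Each log2 difference is therefore set largely by the pseudocount of 16 and is neither a size of change nor a bound. Col11a2, a cartilage chain of collagen XI, read 58.8 and 96.5 in the arrays titled deleted against 11.3 and 11.01 with the empty vector, and the fitted log2 difference was 1.76 (limma adjusted p = 0.0398). Col15a1, a collagen of basement membrane zones, read 108 and 90.3 against 11.9 and 13.1, and the fitted log2 difference was 2.01 (limma adjusted p = 0.0201). All signals but 1 of these lie under the threshold of 103.5 that was set for testing. No group had enough arrays for a search for single arrays far from the others.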

How the results depend on the processing

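Of 85 called pairs of a collagen probe set and a comparison, 60 passed under every alternative setting that gave them a value, and 0 of 85 changed direction. There were 21 such settings for comparisons among the 4 reconstituted groups and 20 for those with the arrays titled deleted, less 1 for probe sets removed by the stricter filter. The collagen count for H1093K against the empty vector, 1, was 0 without the filter, under median scaling, with the compared arrays alone, without the arrays titled deleted, without an intensity trend and whenever 1 array was left out (0 to 0), and the cause was not tested. With 1 array left out, the collagen counts were 10 to 12 for WT and 7 to 13 for K165A against the empty vector, 0 to 0 for K165A against WT, 8 to 11 for H1093K against WT, 6 to 10 for K165A against H1093K, 18 to 22 and 14 to 17 for the arrays titled deleted against the empty vector and WT, and 11 to 13 for the F test. Over all probe sets, the counts against the empty vector were 831 to 1626 for WT, against 1664 with all arrays, 859 to 1403 for K165A, against 1576, and 7 to 93 for H1093K, against 118. They were 572 to 1080 for H1093K against WT (1138 with all arrays) and 575 to 992 for K165A against H1093K (1046). With the compared arrays alone they were 832 for K165A and 11 for H1093K, and for H1093K 60 without the filter, 69 without the arrays titled deleted and 59 without an intensity trend. Arrays with the same number deviated from their group means together, with r of 0.229 to 0.509 over 10 pairs of groups, but with 2 numbers they share only a number. With the replicate block, collagen counts were 13 for WT, 16 for K165A and 1 for H1093K against the empty vector, 0 for K165A against WT, 13 for H1093K against WT, 10 for K165A against H1093K, 23 and 18 for the arrays titled deleted and 16 for the F test. Both Col11a1 probe sets then passed for WT and for K165A (limma adjusted p = 0.0206 and 0.0286 for those that otherwise did not). The block also added K165A calls against the empty vector for the dimmer Col4a5 (0.0156), dimmest Col5a1 (0.0403) and dimmer Col4a1 (0.04998) probe sets. For H1093K against WT it added the brightest probe sets of Col8a1 (0.0415) and Col5a1 (0.0430). In the arrays titled deleted it added brighter Col6a2 against WT (0.00695) and brighter Col18a1 against the empty vector (0.0270). Over all probe sets the block gave 2863 for WT, 2719 for K165A, 471 for H1093K, 1997 for H1093K against WT, 1898 for K165A against H1093K and 3045 for the F test, against 1610 without it. Dim signals limit what can be said of the 26 untested collagen probe sets.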
